A study of Mus musculus with 13 samples.

Results

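GATOR1, GATOR2 and KICSTOR are the protein complexes through which a cell's amino acid supply reaches the kinase mTORC1 at the lysosome. The genes described are the 9 rows of the deposited count table with the symbols Depdc5, Nprl2 and Nprl3 (the 3 subunits of GATOR1), Mios, Wdr24, Wdr59 and Seh1l (4 subunits of GATOR2) and Kptn and Itfg2 (2 subunits of KICSTOR), out of 35013 rows in all. They were chosen by name. All 9 were among the 16468 genes kept by the filter on low counts.

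Newly made RNA was measured in mouse kidney by sequencing RNA that had taken up 4-thiouracil, a labelled base that cells incorporate when they carry the enzyme UPRT. The 13 libraries came from female mice given tamoxifen, every one carrying the Megalin3'Cre-Ert transgene and 1 floxed Uprt allele. The 4 libraries labelled Spns1 KO came from Spns1 flox/flox mice and the 5 WT libraries from littermates, which the study's methods describe as Spns1 flox/+ and the labels as Spns1 WT. The 4 FeO libraries came from mice of the WT genotype given 12 mg of iron as iron sucrose on each of 3 days and euthanized 1 week later. Ages were not given in the sources used here. Cre was driven from the megalin gene, which among kidney cells is active mainly in the proximal tubule, whereas RNA was purified from whole kidney and then selected for the label.

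Library totals ran from 23068023 to 37362311 counts in WT, from 31809135 to 71296474 in the libraries labelled Spns1 KO and from 25986133 to 29981814 in FeO. The 9 members had between 145 (Kptn) and 5791 (Seh1l) counts per library, so none was near the detection floor. Spns1 itself did not separate the groups. It lay between 39.2 and 62.9 CPM (counts per 1000000 of the library size, as scaled by edgeR's TMM factors) in WT, between 36.6 and 59.0 in the libraries labelled Spns1 KO and between 39.0 and 58.7 in FeO, and its log2 fold change in the libraries labelled Spns1 KO was -0.31 (SE 0.18, adjusted p = 0.225 in the quasi-likelihood test of edgeR, adjusted by Benjamini-Hochberg like all such values here). A count covers every exon of the gene, so it does not check the deletion. Proximal tubule markers were present in every library, with a summed level of 3345 to 4714 CPM in WT, 6225 to 7049 in the libraries labelled Spns1 KO and 1899 to 4614 in FeO. Markers of other kidney cells were detected too, with none of the listed markers at 0. In such tissue RNA, fewer cells of a type and less RNA per cell cannot be told apart.

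GATOR1 is a GTPase-activating complex for the Rag GTPases RagA and RagB, and by acting on them it switches mTORC1 off when amino acids are scarce. GATOR2 opposes GATOR1, and the cytosolic sensors of leucine (the Sestrins) and of arginine (the Castor proteins) bind to GATOR2 in the absence of their amino acid. KICSTOR holds GATOR1 at the lysosomal surface. In GATOR1, Depdc5 contacts the Rag GTPases, whereas Nprl2 and Nprl3 form a heterodimer in which Nprl2 carries the catalytic arginine.

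Of the 9 genes, Nprl2 was upregulated in both models, Kptn was upregulated in FeO, and Nprl3 and Mios were downregulated in FeO. The 250 bases upstream of the annotated start of these 4 genes are shown because they hold the proximal promoters of the members whose RNA changed. They are from RefSeq on GRCm38.p6, written 5′ to 3′ on the strand of the gene, with matches to the motifs named next in capitals.
Nprl2 (chr9:107541959-107542208, plus strand): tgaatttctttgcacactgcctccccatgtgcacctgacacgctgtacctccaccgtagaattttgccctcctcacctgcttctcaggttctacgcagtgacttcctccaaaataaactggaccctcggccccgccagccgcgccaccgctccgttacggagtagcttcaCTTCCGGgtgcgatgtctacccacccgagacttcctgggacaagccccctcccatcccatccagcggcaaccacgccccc
Kptn (chr7:16119626-16119875, plus strand): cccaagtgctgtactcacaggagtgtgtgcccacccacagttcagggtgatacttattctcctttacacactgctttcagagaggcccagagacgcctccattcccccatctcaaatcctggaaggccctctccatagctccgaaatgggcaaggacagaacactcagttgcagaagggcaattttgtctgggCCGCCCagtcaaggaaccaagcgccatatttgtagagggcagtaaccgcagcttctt
Nprl3 (chr11:32267708-32267957, minus strand): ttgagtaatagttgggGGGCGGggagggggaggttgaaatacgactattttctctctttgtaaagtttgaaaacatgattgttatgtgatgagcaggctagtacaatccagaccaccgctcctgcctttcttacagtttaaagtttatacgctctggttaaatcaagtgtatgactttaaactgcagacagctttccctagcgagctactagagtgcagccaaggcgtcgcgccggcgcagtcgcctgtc
Mios (chr6:8208977-8209226, plus strand): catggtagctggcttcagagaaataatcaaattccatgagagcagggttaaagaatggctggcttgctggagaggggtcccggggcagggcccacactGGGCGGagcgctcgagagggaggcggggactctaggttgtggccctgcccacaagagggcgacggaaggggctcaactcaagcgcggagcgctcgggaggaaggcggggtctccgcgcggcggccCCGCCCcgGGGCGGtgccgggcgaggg
On both strands, 5 motifs were searched. They were the E-box palindrome CACGTG of the MiT/TFE factors and others, the ETS factor motif CCGGAAG, the NF-Y motif CCAAT, the motif GGGCGG of Sp1 and related factors, and TGATGNAA, the composite element read by ATF4. The Nprl2 window held CCGGAAG on the other strand, a match found in 6.91% of 32851 windows of the same length. GGGCGG occurred at 1 place in the Kptn window, at 1 in the Nprl3 window and at 3 in the Mios window, and is present in 32.7% of all windows. No match overlapped another. The 4 windows held no E-box palindrome (present in 6.02% of all windows), no NF-Y motif (33.8%) and no ATF4 element (3.45%) as spelled.

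A gene was called up- or downregulated, with the limits of the study, when the adjusted p was under 0.05 and the log2 fold change was larger than 0.5 in size. In the libraries labelled Spns1 KO against WT, 1 of the 9 members was called (Nprl2, up), where 21.6% of all tested genes were called, 14.0% up and 7.55% down. In FeO against WT, 4 of 9 were called, 2 up and 2 down, where 42.2% of all tested genes were called, 22.4% up and 19.7% down. The first share lay below its background and the second near it, so neither set these 9 genes apart. The median log2 fold change of the 9 genes was -0.18 in the libraries labelled Spns1 KO (-0.045 over all tested genes) and -0.064 in FeO (-0.011 over all tested genes). In each model 4 members lay above 0 and 5 below, where 46.8% of all tested genes lay above 0 in the libraries labelled Spns1 KO and 49.5% in FeO. Within GATOR1, Nprl2 rose and Nprl3 fell in FeO.

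**Figure D1:**
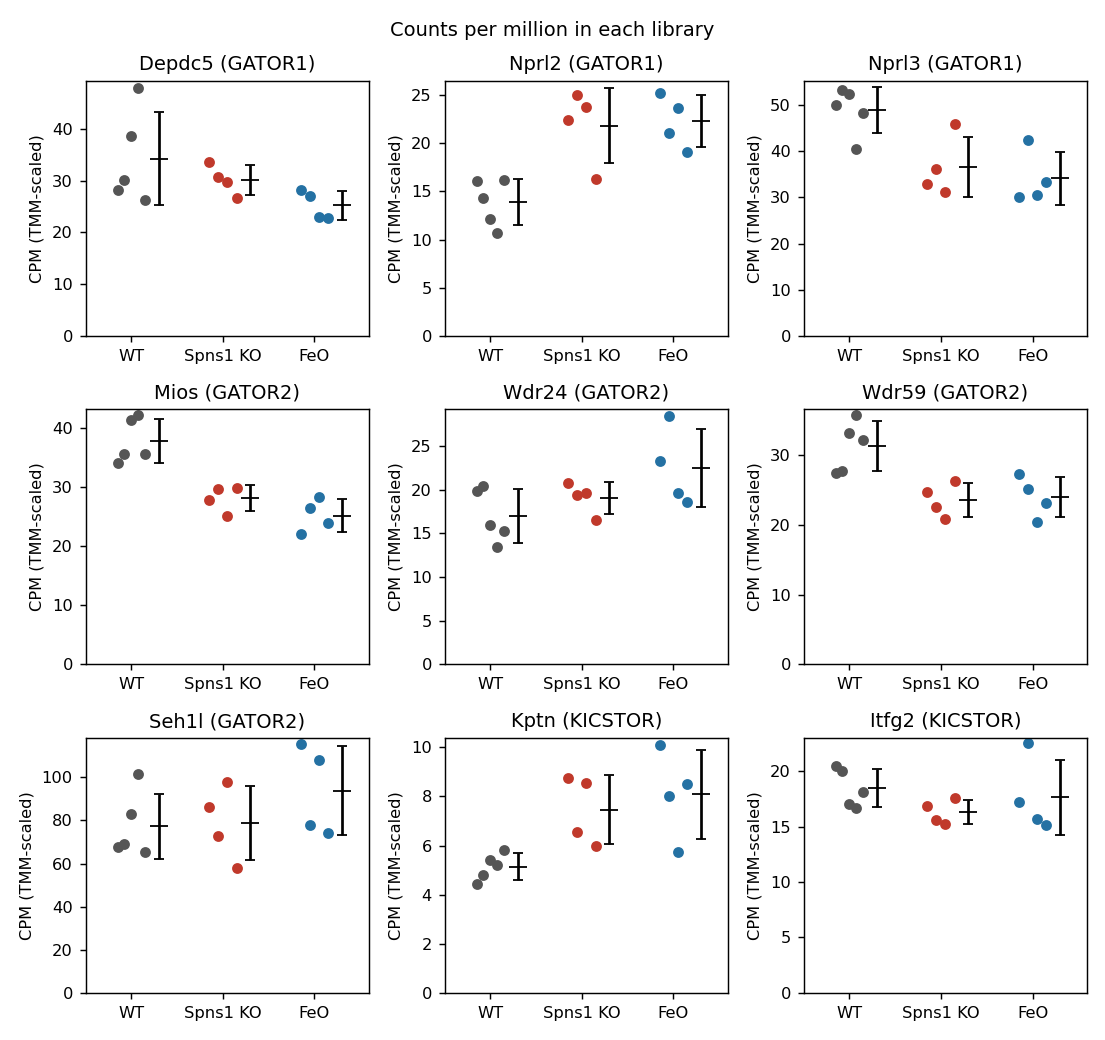
Each panel plots 1 gene, with a point for each library (WT n = 5, Spns1 KO n = 4, FeO n = 4) in CPM from a zero baseline and, beside the points, the group mean with its SD. Nprl2 sits higher, and Mios and Wdr59 lower, than every WT library in both models, whereas Seh1l, Wdr24 and Itfg2 overlap WT.

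Nprl2, the catalytic subunit of GATOR1 (chromosome 9 from 107542226 to 107545706 of GRCm38, plus strand), was at 16.0, 14.4, 12.2, 10.7 and 16.2 CPM in WT 1 to 5. It was at 22.4, 25.0, 23.7 and 16.2 CPM in the libraries labelled Spns1 KO 1 to 4 and at 25.2, 21.1, 23.6 and 19.1 CPM in FeO 1 to 4. All 8 libraries of the 2 models lay above all 5 WT libraries, but Spns1 KO 4 did so by less than 0.1 CPM and fell back among them when levels were scaled to library totals alone. Group means (± SD) were 13.9 ± 2.42 CPM over the 5 WT libraries, 21.8 ± 3.87 over the 4 labelled Spns1 KO and 22.3 ± 2.70 over the 4 FeO libraries. Nprl2 was upregulated 1.57-fold in the libraries labelled Spns1 KO (log2 fold change 0.65, SE 0.17, adjusted p = 0.0138 from edgeR) and 1.60-fold in FeO (0.68, SE 0.17, adjusted p = 0.00541). The first call was lost without Spns1 KO 2 (0.58), and the second was kept whichever single library was left out.

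Nprl3, the partner of Nprl2 in the GATOR1 heterodimer (chromosome 11 from 32225628 to 32267707, minus strand), moved the other way. It was at 50.1, 53.2, 52.4, 40.6 and 48.3 CPM in WT 1 to 5, at 32.9, 36.2, 31.2 and 45.9 CPM in the libraries labelled Spns1 KO 1 to 4 and at 30.1, 42.4, 30.6 and 33.4 CPM in FeO 1 to 4. WT 4 was the lowest WT library, and Spns1 KO 4 and FeO 2, the highest of their groups, lay above it. Nprl3 fell to 0.698 of WT in FeO (log2 fold change -0.52, SE 0.15, adjusted p = 0.0135 from edgeR), and its value in the libraries labelled Spns1 KO was -0.42 (SE 0.15, adjusted p = 0.058). The FeO value sat close to the fold limit and was inside it without WT 2 (-0.49), WT 3 (-0.48), FeO 1 (-0.44), FeO 3 (-0.47) or FeO 4 (-0.48), whereas the value in the libraries labelled Spns1 KO passed the limits without Spns1 KO 4 (-0.55). Nprl3 overlaps Mpg on the opposite strand, and 17.3% of the stretches of 31 bases in its transcript are found in other genes as well, mostly in Mpg. How the counting used strand was not given in the sources used here, so reads of the 2 genes may not be told apart. Mpg, a DNA glycosylase, was not called, with log2 fold changes of 0.21 and 0.048 in the libraries labelled Spns1 KO and in FeO.

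The ratio of the 2 heterodimer subunits lay higher in every library of both models than in any WT library. Per kilobase of transcript, Nprl2 to Nprl3 stood between 0.462 and 0.666 in WT (median 0.536). It lay between 0.704 and 1.51 in the libraries labelled Spns1 KO (median 1.36, with the lowest value in Spns1 KO 4) and between 0.988 and 1.67 in FeO (median 1.34). The ratio was thus below 1 in every WT library, but also in Spns1 KO 4 (0.704) and FeO 2 (0.988). These ratios set a transcript of 1441 bases against another of 2865, describe RNA only, and were not tested. Genes of 1190 to 1696 bases, like Nprl2, had median log2 fold changes of 0.34 and 0.56 in the 2 models. Those of 2598 to 3060 bases, like Nprl3, had medians of -0.029 and 0.12. How far the ratio followed transcript length was not tested, and how often other pairs of genes separate in this way was not counted.

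Depdc5, the Rag-binding subunit (chromosome 5 from 32863701 to 32994236, plus strand), was at 28.1, 30.2, 38.6, 47.9 and 26.3 CPM in WT 1 to 5. It was at 33.6, 30.6, 29.8 and 26.6 CPM in the libraries labelled Spns1 KO 1 to 4 and at 28.2, 27.0, 23.0 and 22.7 CPM in FeO 1 to 4. WT 3 and WT 4 were high, and the other 3 WT libraries overlapped both models. Depdc5 was not called, with log2 fold changes of -0.18 (SE 0.18, adjusted p = 0.467 from edgeR) and -0.44 (SE 0.18, adjusted p = 0.0532). However, the FeO value passed both limits without WT 1 (-0.50) or WT 5 (-0.50). Per kilobase, the ratio of Depdc5 to Nprl3 overlapped in all groups (WT 0.190 to 0.412, Spns1 KO 0.202 to 0.356, FeO 0.222 to 0.327). Nprl2 to Depdc5 was 1.27 to 3.51 in WT, 3.48 to 4.65 in the libraries labelled Spns1 KO and 4.45 to 5.86 in FeO. Neither ratio was tested.

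In GATOR2, 0 of 4 genes were called in the libraries labelled Spns1 KO and 1, Mios, in FeO. Of all tested genes, 21.6% and 42.2% were called, so counts this small out of 4 do not set GATOR2 apart. Mios, a WD40 protein of the GATOR2 scaffold (chromosome 6 from 8209222 to 8236274, plus strand), was at 34.2, 35.6, 41.4, 42.1 and 35.6 CPM in WT 1 to 5. It was at 27.8, 29.8, 25.1 and 29.9 CPM in the libraries labelled Spns1 KO 1 to 4 and at 22.0, 26.5, 28.4 and 23.9 CPM in FeO 1 to 4. Every library of both models lay below every WT library, also when scaled to library totals. Mios fell to 0.667 of WT in FeO (log2 fold change -0.58, SE 0.13, adjusted p = 0.00273 from edgeR), a call kept whichever library was left out. In the libraries labelled Spns1 KO the log2 fold change was -0.42 (SE 0.13, adjusted p = 0.0288), past the p limit and inside the fold limit.

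Wdr59, a GATOR2 subunit with WD40 and RING domains (chromosome 8 from 111448797 to 111522092, minus strand), was at 27.4, 27.7, 33.1, 35.7 and 32.2 CPM in WT 1 to 5. It was at 24.7, 22.5, 20.8 and 26.3 CPM in the libraries labelled Spns1 KO 1 to 4 and at 27.2, 25.1, 20.4 and 23.2 CPM in FeO 1 to 4. Both models lay below WT, with FeO 1 and WT 1 nearly touching, and the FeO separation was lost on library totals. The log2 fold changes were -0.41 (SE 0.14, adjusted p = 0.0466 from edgeR) and -0.38 (SE 0.14, adjusted p = 0.0369), both inside the fold limit.

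Wdr24, another WD40 and RING subunit (chromosome 17 from 25823627 to 25828730, plus strand), was at 19.9, 20.5, 16.0, 13.4 and 15.3 CPM in WT 1 to 5. It was at 20.8, 19.4, 19.7 and 16.5 CPM in the libraries labelled Spns1 KO 1 to 4 and at 23.3, 28.5, 19.7 and 18.6 CPM in FeO 1 to 4. FeO 2 was the highest library, and the groups overlapped. Wdr24 was not called, with log2 fold changes of 0.17 (SE 0.17, adjusted p = 0.497 from edgeR) and 0.40 (SE 0.17, adjusted p = 0.063), the latter past both limits without FeO 4 (0.51). Per kilobase, the ratio of Mios to Wdr24 was 1.44 to 2.62 in WT, 1.07 to 1.51 in the libraries labelled Spns1 KO and 0.779 to 1.20 in FeO. Wdr24 to Wdr59 was 0.616 to 1.21 in WT, 1.03 to 1.55 in the libraries labelled Spns1 KO and 1.31 to 1.86 in FeO. Neither ratio was tested.

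Seh1l is a WD40 protein that GATOR2 shares with the Y-complex of the nuclear pore. It was at 67.5, 69.2, 82.8, 101 and 65.6 CPM in WT 1 to 5, at 86.3, 73.0, 98.0 and 58.1 CPM in the libraries labelled Spns1 KO 1 to 4 and at 115, 77.9, 108 and 74.3 CPM in FeO 1 to 4. Libraries of each group differed widely and the groups overlapped. The log2 fold changes were 0.029 (SE 0.19, adjusted p = 0.927 from edgeR) and 0.28 (SE 0.19, adjusted p = 0.245).

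The KICSTOR members, which take part in anchoring GATOR1, differed from each other. Kptn, which encodes kaptin (chromosome 7 from 16119895 to 16127516, plus strand), was at 4.44, 4.81, 5.42, 5.23 and 5.83 CPM in WT 1 to 5. It was at 8.75, 6.55, 8.55 and 5.97 CPM in the libraries labelled Spns1 KO 1 to 4 and at 10.1, 8.01, 5.72 and 8.51 CPM in FeO 1 to 4. All libraries labelled Spns1 KO lay above WT, Spns1 KO 4 only just, whereas on library totals Spns1 KO 2 and Spns1 KO 4 lay inside the WT range, and FeO 3 lay inside the WT range. Kptn was upregulated 1.57-fold in FeO (log2 fold change 0.65, SE 0.19, adjusted p = 0.0138 from edgeR) whichever library was left out. In the libraries labelled Spns1 KO its log2 fold change was 0.54 (SE 0.19, adjusted p = 0.0565), and it passed both limits without Spns1 KO 4 (0.63), FeO 1 (0.55) or FeO 3 (0.54).

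Itfg2, the other KICSTOR member (chromosome 6 from 128409444 to 128424931, minus strand), was at 20.5, 20.0, 17.0, 16.7 and 18.1 CPM in WT 1 to 5. It was at 16.9, 15.6, 15.3 and 17.6 CPM in the libraries labelled Spns1 KO 1 to 4 and at 17.2, 22.6, 15.7 and 15.1 CPM in FeO 1 to 4. The groups overlapped, and the log2 fold changes were -0.18 (SE 0.15, adjusted p = 0.402 from edgeR) and -0.064 (SE 0.15, adjusted p = 0.737). Per kilobase, the ratio of Kptn to Itfg2 was 0.424 to 0.630 in WT, 0.664 to 1.10 in the libraries labelled Spns1 KO and 0.695 to 1.15 in FeO. This ratio sets a transcript of 1630 bases against one of 3191 and was not tested. Like Nprl3, other members lie over another annotated gene, and whether part of their reads belong to it was not tested. These are Itfg2 (Nrip2), Seh1l (4930549G23Rik) and Wdr59 (Mir1957b), with the other gene on the opposite strand, and Wdr24 (Gm26694) and Depdc5 (Gm24003 and Gm43693), with it on the same strand. Of their stretches of 31 bases, 6.91% in Wdr59, 5.67% in Itfg2, 2.57% in Seh1l, 0.577% in Depdc5 and 0% in Wdr24 are found in other genes. The gene that shares most is the overlapping one only for Seh1l. It is Vmn1r229 for Wdr59, Decr2 for Itfg2 and Rint1 for Depdc5, so these shares do not measure the overlap.

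Counting genes whose libraries did not overlap WT gave 4 of 9 in the libraries labelled Spns1 KO (Nprl2 and Kptn higher, Mios and Wdr59 lower), where 22.4% of all tested genes did not overlap, 13.1% higher and 9.38% lower. In FeO it gave 3 of 9 (Nprl2 higher, Mios and Wdr59 lower), where the share over all tested genes was 33.4%, 16.9% higher and 16.4% lower. Nprl2, Mios and Wdr59 lay outside WT in the same direction in both models, as did 9.79% of all tested genes. On library totals the counts were 3 in the libraries labelled Spns1 KO (Mios, Wdr59 and Itfg2, all lower; 24.7% of all tested genes) and 2 in FeO (Nprl2 higher, Mios lower; 31.4%). For 7 of the 9 members, all but Depdc5 and Seh1l, Spns1 KO 4 was the library of its group nearest to the WT mean. Without it, 3 members were called in that comparison, Nprl2 (0.77), Kptn (0.63) and Nprl3 (-0.55), among 34.1% of all tested genes, so this count too was near its background.

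Both models share their WT libraries, so their difference was tested directly. Between the libraries labelled Spns1 KO and FeO, 0 of the 9 members were called by edgeR or by DESeq2, and 0 had an unadjusted p under 0.05, where 14.9% of all tested genes were called. The log2 differences ran from -0.25 (Seh1l) to 0.26 (Depdc5), with standard errors of 0.14 to 0.20 and adjusted p between 0.35 and 0.926. Nprl2 differed by -0.029 (SE 0.18), Kptn by -0.12 (SE 0.20), Nprl3 by 0.098 (SE 0.16) and Mios by 0.16 (SE 0.14). Differences of a size like that of the standard errors were not detectable with 4 libraries a group.

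**Figure D2:**
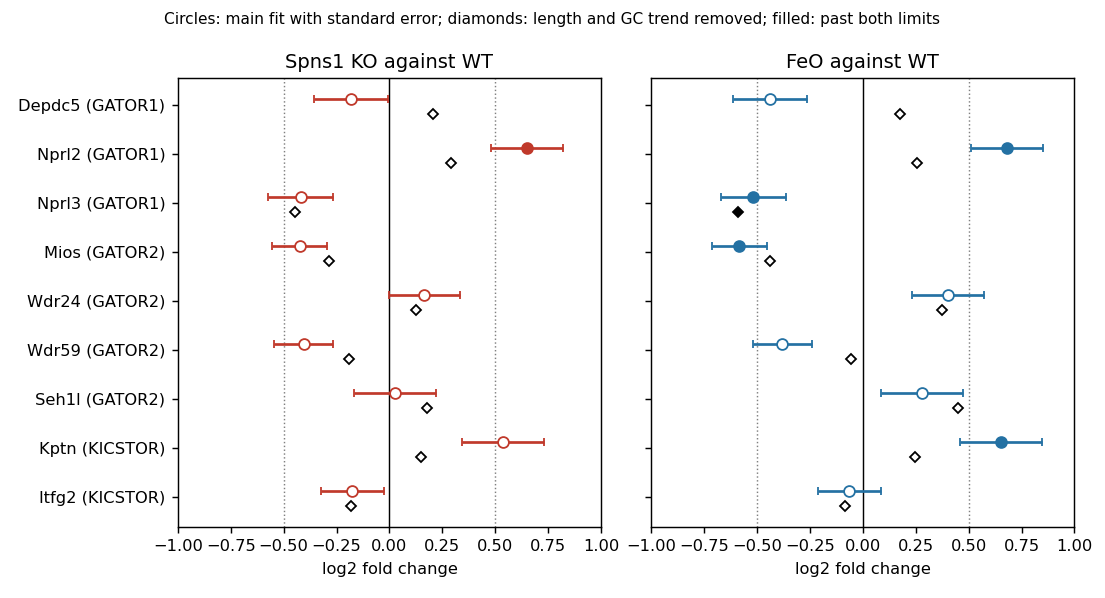
Log2 fold change against WT of the 9 members in the libraries labelled Spns1 KO (left) and in FeO (right). Circles are the fit as reported with its standard error, diamonds the fit with the trend on length and GC removed, filled symbols passed both limits, and dotted lines mark 0.5 in either direction; Nprl2 lies at 0.65 and 0.68 and moves to 0.29 and 0.25, while Nprl3 in FeO stays filled at -0.59.

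In these libraries the fold change of a gene went with the length of its transcript. Among 16195 tested genes with a known length, the 1620 shortest (up to 1189 bases) had median log2 fold changes of 0.56 in the libraries labelled Spns1 KO and 0.77 in FeO, and the 1620 longest (6624 bases and more) medians of -0.39 and -0.66. The 2 members that were called up are the 2 shortest, Nprl2 at 1441 bases and Kptn at 1630. Genes of 1190 to 1696 bases, the length class that holds both when tested genes are divided into 10 classes of equal number, had medians of 0.34 in the libraries labelled Spns1 KO and 0.56 in FeO. Nprl2 (0.65 and 0.68) and Kptn (0.54 and 0.65) lay above these medians.

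Nprl3 and Mios lay below the medians for genes of their length. Nprl3 has 2865 bases, and genes of 2598 to 3060 bases had medians of -0.029 and 0.12, against -0.42 and -0.52 for Nprl3. Mios has 3710 bases, and genes of 3585 to 4219 bases had medians of -0.12 and -0.10, against -0.42 and -0.58 for Mios. Wdr24 (3099 bases) and Seh1l (3542 bases) lay above the medians of their length class, which were -0.093 and -0.021. Depdc5 has the longest transcript of the 9, at 8216 bases, and its log2 fold changes of -0.18 and -0.44 were above the medians of its length class.

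**Figure D3:**
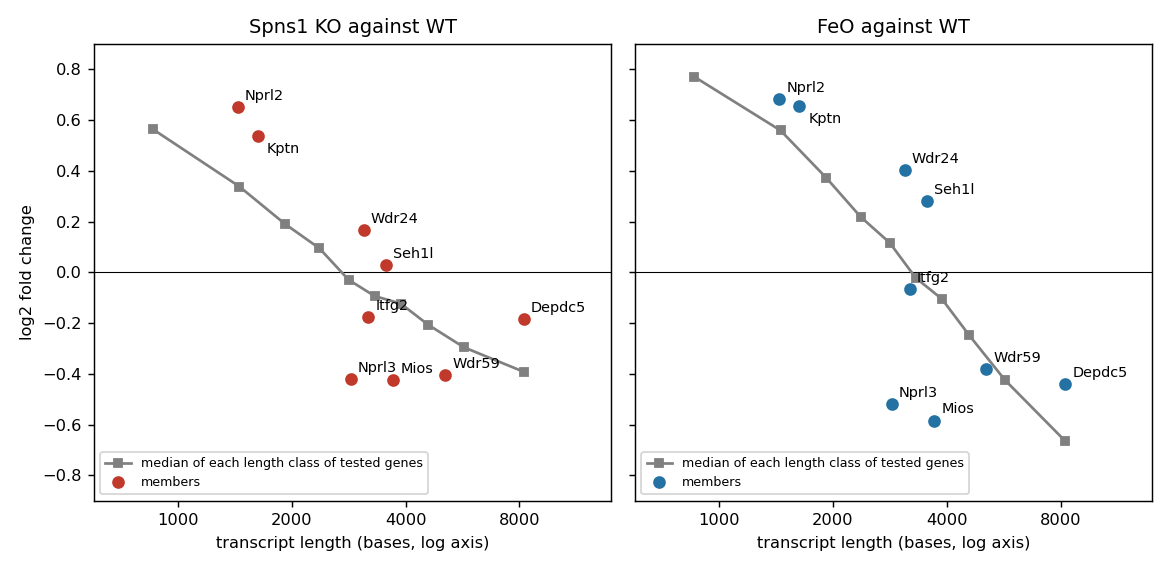
Log2 fold change against WT by transcript length in bases (log axis) in the libraries labelled Spns1 KO (left) and in FeO (right). Grey squares are medians over 10 length classes of the tested genes and coloured points are the 9 members. The grey line falls from 0.56 to -0.39 and from 0.77 to -0.66. In both panels Nprl3, Mios and Itfg2 lie below the median of their length class. Nprl2, Kptn, Depdc5, Wdr24 and Seh1l lie above theirs in both, and Wdr59 lies below its own on the left only.

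When each library's trend with transcript length and GC content was fitted and removed, 0 members were called in the libraries labelled Spns1 KO and 1 in FeO, where 15.3% and 33.4% of all tested genes were called. Nprl3 kept its call in FeO (log2 fold change -0.59) and stood at -0.45 in the libraries labelled Spns1 KO. Mios stood at -0.28 and -0.44, inside the fold limit. Nprl2 went to 0.29 and 0.25 and Kptn to 0.15 and 0.25, and neither was called. Depdc5 changed sign, to 0.20 and 0.17, and Wdr59 went to -0.19 and -0.057. Whether the trend has a technical origin was not tested.

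Levels of different genes were compared only per kilobase of transcript. In WT, Seh1l had the highest level (21.8 CPM per kilobase), followed by Nprl3 (17.1), Mios (10.2), Nprl2 (9.63), Wdr59 (6.14), Itfg2 (5.78), Wdr24 (5.49), Depdc5 (4.16) and Kptn (3.16). Of the neighbours in this order, the WT libraries overlapped except between Nprl3 and Mios and between Nprl2 and Wdr59. In the libraries labelled Spns1 KO, Nprl2 (15.1) came before Nprl3 (12.8), though their ranges overlapped, and Depdc5 (3.67) was the lowest. In FeO, Nprl2 (15.4) again came before Nprl3 (11.9), also overlapping, and Wdr24 (7.26) before Mios (6.79). Depdc5 was the lowest in FeO too, at 3.07 CPM per kilobase, with all its libraries below those of Wdr59 (4.72), the next in the order.

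**Figure D4:**
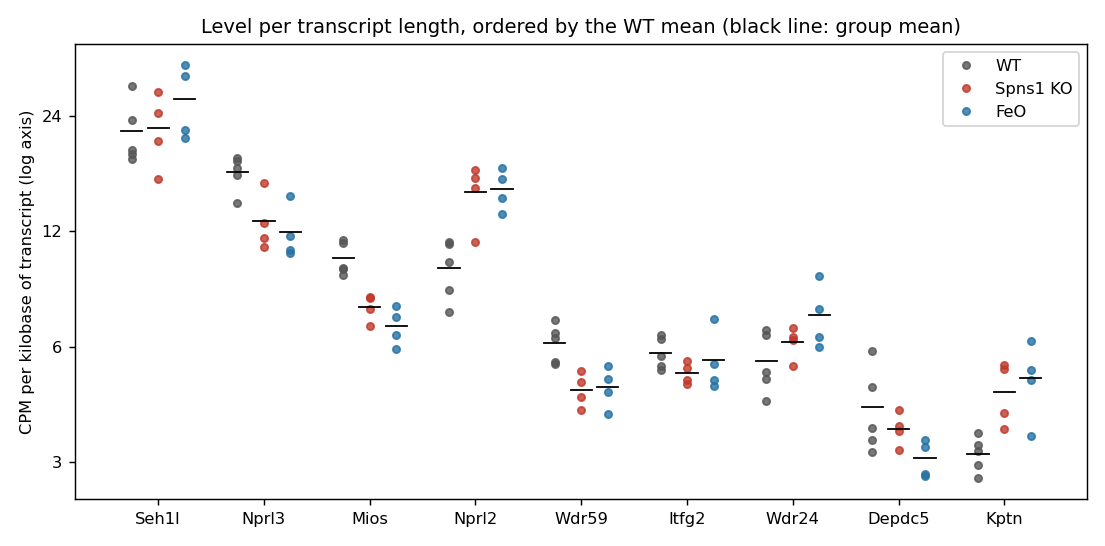
CPM per kilobase of transcript (log axis) of the 9 members in each library, grouped by gene in the order of the WT mean, with black lines at the group means. Nprl2 rises from a WT mean of 9.63 to 15.1 in Spns1 KO and 15.4 in FeO, past Nprl3, which goes from 17.1 to 12.8 and 11.9.

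For each member called in a model, the 3 tested genes with the most similar profile were found by the root mean square difference of log2 CPM over the 13 libraries, each profile centred on its WT mean. For Nprl2 these were Mvb12a (0.10), Atraid (0.11) and Mydgf (0.11), against a median of 0.76 over all tested genes. For Nprl3 they were Sf1 (0.065), Bahd1 (0.074) and Fastkd3 (0.082), against a median of 0.65. For Mios they were Mapk1ip1l (0.093), Slc35e2 (0.094) and Ski (0.095), against a median of 0.65. For Kptn the nearest genes were less close, at 0.16 for Atp9a, 0.16 for Cpne2 and 0.17 for Ift52, against a median of 0.71. The smallest of so many distances must lie below the median, which is given only for scale.

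Sec13, the GATOR2 subunit that is shared with the nuclear pore and with COPII vesicle coats (chromosome 6 from 113728062 to 113740743), was at 31.1, 28.4, 25.7, 25.4 and 34.0 CPM in WT 1 to 5. It was at 48.5, 47.7, 51.9 and 28.2 CPM in the libraries labelled Spns1 KO 1 to 4 and at 70.3, 41.7, 64.2 and 39.7 CPM in FeO 1 to 4. All FeO libraries lay above WT, and Spns1 KO 4 lay inside the WT range. Sec13 was upregulated 1.87-fold in FeO (log2 fold change 0.90, SE 0.21, adjusted p = 0.00313 from edgeR) and 1.52-fold in the libraries labelled Spns1 KO (0.61, SE 0.21, adjusted p = 0.0437), a call that was lost in 7 of the 13 leave-one-out fits, with values of 0.52 (without Spns1 KO 3) to 0.63 (without WT 1) in those 7. The others were without Spns1 KO 1 (0.56), Spns1 KO 2 (0.57), WT 2 (0.60), WT 3 (0.58) and WT 4 (0.58). Sec13 has a short transcript (1353 bases), and with the length and GC trend removed its FeO value was 0.45 and it was not called. The KICSTOR gene Kics2 was not matched to a row and was not analysed here.

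Among 9 amino acid sensors, 0 were called up and 2 down in the libraries labelled Spns1 KO. In FeO, 1 was called up and 4 down. Of all tested genes, 7.55% were called down in the first comparison. For FeO the shares were 22.4% up and 19.7% down. The median log2 fold change of the list was -0.46 and -0.58, against -0.045 and -0.011 over all tested genes. Sesn1, a Sestrin, had the lowest value of those called. It fell by 1.01 on the log2 scale in the libraries labelled Spns1 KO (SE 0.28, adjusted p = 0.0173 from edgeR) and by 1.33 in FeO (SE 0.28, adjusted p = 0.00193), and it remained called in both when the trend was removed (-0.90 and -1.21), as no other sensor did. The first call was lost without Spns1 KO 1 (-0.87), Spns1 KO 2 (-0.91) or Spns1 KO 3 (-0.86). Bmt2, which encodes the S-adenosylmethionine sensor Samtor, fell by 0.50 in the libraries labelled Spns1 KO and by 0.87 in FeO. The first of these 2 calls rested on the full set, since it was lost in 11 of the 13 leave-one-out fits, with values between -0.51 and -0.44 there. In FeO, Sesn3 fell by 0.78 and Slc38a9, the lysosomal arginine sensor, by 0.55, and Sar1b, a COPII GTPase that also senses leucine, rose by 0.71. The Slc38a9 call was lost without WT 3 (-0.50), WT 4 (-0.41) or FeO 3 (-0.48). With the trend removed, Bmt2 stood at -0.20 in the libraries labelled Spns1 KO and at -0.41 in FeO, and in FeO Sesn3 stood at -0.089, Sar1b at 0.29 and Slc38a9, with its sign reversed, at 0.13.

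None of the 5 ubiquitin regulators was called in the libraries labelled Spns1 KO, where 21.6% of all tested genes were called. In FeO, 1 was called up and 1 down, where the shares of all tested genes were 22.4% and 19.7%. In FeO, the ubiquitin ligase genes Rnf167 and Rnf152 moved apart, with Rnf167 up by 0.86 and Rnf152 down by 0.74 on the log2 scale. Of 9 Rag and mTORC1 genes, 0 were called up and 1 down in the libraries labelled Spns1 KO (14.0% and 7.55% of all tested genes). In FeO, 3 were called up and 2 down (22.4% and 19.7%). Mtor, the kinase itself, fell by 0.55 in the libraries labelled Spns1 KO and by 1.16 in FeO. In FeO, Rptor, which encodes the scaffold Raptor, fell by 0.58, whereas Akt1s1, which encodes the mTORC1 inhibitor PRAS40, rose by 0.94, Rraga by 0.61 and Rragc by 0.51, the latter 2 being Rag GTPases. The Mtor call in the libraries labelled Spns1 KO was lost in 9 of the 13 leave-one-out fits, with values between -0.62 and -0.49. The FeO calls of Rptor, Rraga and Rragc were lost in 2 (WT 4 at -0.46, FeO 4 at -0.47), 1 (FeO 3 at 0.40) and 4 (WT 1 at 0.51, WT 2 at 0.48, FeO 1 at 0.47, FeO 3 at 0.41) of those fits. With the trend removed, Mtor (-0.57), Akt1s1 (0.66) and Rnf167 (0.55) kept their FeO calls, whereas Rptor, Rraga, Rragc and Rnf152 (-0.077) did not, and Mtor lost its call in the libraries labelled Spns1 KO (-0.27).

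Seh1l was also set beside 8 subunits of the nuclear pore Y-complex and its partners. In the libraries labelled Spns1 KO, 0 were called up and 3 down (14.0% and 7.55% of all tested genes), and in FeO 1 up and 4 down (22.4% and 19.7%). Nup98 fell by 0.82 and 0.99, Nup160 by 0.58 and 0.61 and Ahctf1 by 0.53 and 1.15, and in FeO Nup107 fell by 0.60 and Nup43 rose by 0.54. Leaving out a library ended the call of Nup160 in the libraries labelled Spns1 KO in 2 fits (Spns1 KO 3 at -0.48, WT 3 at -0.51) and that of Ahctf1 in 5 (Spns1 KO 1 at -0.57, Spns1 KO 2 at -0.47, Spns1 KO 3 at -0.49, WT 3 at -0.43, WT 4 at -0.42). In FeO the call of Nup107 was lost in 1 fit (FeO 1 at -0.49) and that of Nup43 in 9, at values between 0.48 and 0.57. With the trend removed, Nup98 kept its call in the libraries labelled Spns1 KO (-0.51) and Nup107 in FeO (-0.55). The other calls were lost, with Nup160 at -0.30 and -0.17, Ahctf1 at -0.13 and -0.49, Nup98 in FeO at -0.45 and Nup43 at 0.12. Seh1l, at 0.029 and 0.28, was not among the genes called.

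Nprl3 lies beside the alpha-globin genes, and its introns hold enhancers of alpha-globin. Of 5 genes at this place, Hba-a1 and Hba-a2, the alpha-globin genes, rose 4.55-fold and 4.83-fold in the libraries labelled Spns1 KO and 4.67-fold and 5.36-fold in FeO, and these calls held with the trend removed. How reads were divided among them is uncertain, since other genes hold 75.5% and 92.6% of their stretches of 31 bases. Without FeO 4 their log2 fold changes in FeO were 1.12 and 0.97, still called (2.22 and 2.42 with it). Red cell markers, which include Hba-a1, summed to between 6.64 and 27.4 CPM in WT, 32.8 and 128 in the libraries labelled Spns1 KO and 20.7 and 157 in FeO, with none of the 3 at 0, and their part in these values was not tested. Snrnp25, a subunit of the minor spliceosome, rose by 0.96 in the libraries labelled Spns1 KO and by 1.61 in FeO, in log2 units. Its level was low, with means of 0.80 CPM in WT, 1.56 in the libraries labelled Spns1 KO and 2.44 in FeO. Its transcript is short, at 821 bases. Rhbdf1, an inactive rhomboid protein, fell by 0.90 in FeO. The first call of Snrnp25 was lost in 6 of the 13 leave-one-out fits, at values between 0.78 and 0.97, and that of Rhbdf1 in 4 (WT 1 at -0.78, FeO 1 at -0.70, FeO 3 at -0.87, FeO 4 at -0.83). With the trend removed, that first call of Snrnp25 was lost (0.41), and the FeO calls of Snrnp25 (1.06) and Rhbdf1 (-0.91) were kept.

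Markers of other cells also differed between groups. The 4 immune markers summed to 33.6 to 50.1 CPM in WT, 126 to 185 in the libraries labelled Spns1 KO and 56.0 to 233 in FeO, above WT in both models. The 3 stroma markers (70.2 to 88.3 CPM, against 41.0 to 59.5 in WT) and the 3 endothelium markers (139 to 153, against 114 to 131) lay above WT in the libraries labelled Spns1 KO, as did proximal tubule and red cell markers. In FeO, the 3 podocyte markers did (238 to 562, against 125 to 224). Stroma and endothelium in FeO, podocyte markers in the libraries labelled Spns1 KO, and thick ascending limb and distal markers in both models overlapped WT. Markers within a sum differed. In the libraries labelled Spns1 KO, 2 of 4 immune, 1 of 3 stroma and 1 of 3 endothelium markers were called up (14.0% of all tested genes). Of the endothelium markers there, Emcn was at 0.61, Pecam1 at 0.036 and Kdr at 0.073. In FeO, 3 of 4 immune and 2 of 3 podocyte markers were called up (22.4%). The immune marker Ptprc stood at 0.36 and 0.16 in the 2 models. The part of these markers in the values of the 9 members was not tested.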

How the data were processed

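Thiol-labelled kidney RNA was biotinylated, captured on streptavidin, selected for poly-A tails and sequenced (13 libraries). Estimated counts for each gene, not normalized, were deposited by the authors. The submitters' notes name bcl2fastq 2.19, kallisto 0.44.0, DESeq2 and GRCm38, whereas the study's methods describe alignment with STAR and counting with HTSeq, so the counting step is uncertain. The values were whole as deposited. Counts were fitted with edgeR 4.0.16 (R 4.3.3): filterByExpr by group, TMM factors and the quasi-likelihood test in 1 fit of all libraries, with Benjamini-Hochberg adjustment over 16468 genes. The p-values set the difference between groups against the spread between libraries. DESeq2 1.42.0, limma-voom (limma 3.58.1), other scaling, no filter, 2-group fits, a length and GC offset, a replicate block, glmTreat and leaving out each library were alternatives. The script was checked on simulated counts. Transcript lengths, coordinates and 31-base sequence sharing came from GENCODE on GRCm38, and upstream sequences from RefSeq. Length and GC content were those of a gene's longest protein-coding transcript, or of its longest transcript where it had no protein-coding one. Which transcripts the kidney used was not determined, and levels per kilobase and length classes rest on this choice. Of 38 listed genes other than the members, 37 were matched, and 1 further gene is not reported here. All 9 members are named, other listed genes where called, and Sec13 always. Members and lists were chosen with earlier results of these data known.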

Additional observations from a re-analysis of the deposited data

Results flagged for a closer look

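Of 30 checks of a gene in a group, over the 9 members and Sec13, 0 passed the critical value of Dixon's test. By chance about 1 in 20 pass. With 4 or 5 libraries a group the test passes only very wide gaps, so it cannot show that no library stood apart. Spns1 KO 4 was at 16.2 CPM for Nprl2, the others of its group at 22.4 to 25.0. For Nprl3 it was at 45.9 CPM, the others at 31.2 to 36.2.

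Of the other listed genes, 4 differed between the libraries labelled Spns1 KO and FeO in the direct edgeR test. Rnf167, a lysosomal ubiquitin ligase, was lower in the libraries labelled Spns1 KO, with a log2 difference of -0.78 (SE 0.15, adjusted p = 0.00566) and means of 58.0 and 99.3 CPM, and this call was kept whichever library was left out. Akt1s1 was lower by -0.68 (SE 0.20, adjusted p = 0.0323), with means of 27.6 and 44.2 CPM, a call lost in 6 of the 13 leave-one-out fits. Mtor was higher by 0.61 (SE 0.20, adjusted p = 0.0478), with means of 334 and 219 CPM, lost in 10 of those fits. Ahctf1 was higher by 0.62 (SE 0.17, adjusted p = 0.0275), with means of 134 and 87.0 CPM, lost in 4. With the length and GC trend removed, Rnf167 (-0.71) and Akt1s1 (-0.79) kept their calls, and Mtor (0.30) and Ahctf1 (0.36) lost theirs.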

How the results depend on the processing

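Counts of called members moved with several settings. In the libraries labelled Spns1 KO the count was 1 as reported, 2 with DESeq2 or with only the 2 groups in the fit (Kptn added), 3 with library totals in place of TMM factors (Mios, Nprl3 and Wdr59 called and Nprl2 not), 0 with the length and GC trend removed, alone or with the replicate block, and 0 against a fold limit of 0.5 with glmTreat. Library totals shift the median of all tested genes in that comparison from -0.045 to -0.18. In FeO the count was 4 as reported, 1 with the trend removed, alone or with the block, and 0 with glmTreat. The shares of all genes called in the libraries labelled Spns1 KO were 21.6% as reported, 17.0% with DESeq2, 25.5% with 2 groups, 23.2% on library totals, 15.3% with the trend removed, 8.60% with the block as well and 5.64% with glmTreat, and in FeO 42.2% as reported, 33.4%, 27.2% and 18.9% with the last 3. The 17.0% is 4204 of 24727 genes with a count, and the 21.6% is 3550 of 16468 genes kept by the filter. DESeq2 thus called more genes, from a larger base. Leaving out each library in turn gave 0 to 3 called members in the libraries labelled Spns1 KO, 3 to 5 in FeO and 0 to 0 between the models.
Over all tested genes, the block with the trend removed called 1416 genes in the libraries labelled Spns1 KO (3550 as reported) and 4472 in FeO (6943), glmTreat called 929 and 3119, and between the models only the 2 groups in the fit gave 1040 and glmTreat 343 (2447). Leaving out each library gave 2035 (without Spns1 KO 3) to 5680 (without Spns1 KO 4) in the libraries labelled Spns1 KO, 5627 (without FeO 1) to 7473 (without FeO 2) in FeO, and 1181 (without FeO 1) to 3087 (without FeO 2) between them. On library totals the calls in the libraries labelled Spns1 KO split into 1739 up and 2086 down, against 2307 and 1243 as reported.
Some values changed sign, and where no value shows it the cause was not tested. With the trend removed, and with the block and the trend removed, Depdc5 was at 0.20 and 0.14 in the libraries labelled Spns1 KO and at 0.17 and 0.12 in FeO, Slc38a9 in FeO at 0.13 and 0.10, and the Nprl2 difference between the models at 0.037 and 0.040. Rnf152 in FeO reversed with both together (0.0069). Seh1l in the libraries labelled Spns1 KO was at -0.10 on library totals and at -0.051 with the replicate block, and Itfg2 in FeO at 0.0013 with all genes that had a count. Over the fits that left out a library, Seh1l ran from -0.092 to 0.16 in the libraries labelled Spns1 KO and Itfg2 from -0.19 to 0.029 in FeO, and between the models Nprl2 ran from -0.10 to 0.090, Nprl3 from -0.029 to 0.23, Wdr59 from -0.095 to 0.046, Kptn from -0.25 to 0.0098 and Itfg2 from -0.18 to 0.034. Nprl3 in FeO lost its call with all genes that had a count (-0.45), and Sec13 in the libraries labelled Spns1 KO with limma-voom (0.57).
Whether the replicate numbers pair the samples was not settled. Deviations from the group means over the 500 most variable genes were correlated between libraries. In 12 pairs of the same number the correlations ran from -0.43 to 0.26 (median 0.047), with 4 over 0.1. In 44 other pairs they ran from -0.28 to 0.35 (median 0.019), with 11 over 0.1. With 4 or 5 libraries a group, such values cannot decide whether samples were paired. With the number as a replicate block, 1 member was called in the libraries labelled Spns1 KO, 4 in FeO and 0 between the models, among 2988, 6516 and 1917 genes. With 4 or 5 libraries a group and standard errors of 0.13 to 0.20, changes much smaller than the fold limit were not detectable for any of the 9 members.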
